A study of Solanum lycopersicum with 3 samples.

Results

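The tomato (Solanum lycopersicum) genes IAA11, IAA12, IAA13, IAA26, IAA29, IAA35 and IAA36 belong to the Aux/IAA family of auxin-response repressors. They were taken by a list of 7 locus identifiers, all of which were among the 21717 loci of the deposited table. RNA was measured in 3 replicate libraries of leaf primordia from plants of the genotype slmp (allele slmp-1), in which the auxin response factor SlMP, the tomato counterpart of MONOPTEROS, is mutated. Each library pooled 15 young primordia of leaf 5 at the P5 stage, the fifth youngest primordium of the shoot, from seedlings kept in light for 18 h and in darkness for 6 h each day and mock-sprayed with water 1 h before collection. All 3 libraries carry the mutation and the mock spray, so the values describe the mutant primordium and make no comparison with another genotype or treatment. Nothing in the labels says that the libraries came from separate sets of plants, so any spread given here is the spread between these samples, which may be technical.

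Aux/IAA proteins are short-lived nuclear repressors. They bind auxin response factors and bring in TOPLESS co-repressors, and auxin brings them to TIR1/AFB receptors, which mark them for degradation. In Arabidopsis, IAA12 is BODENLOS, the partner that holds MONOPTEROS inactive in the embryo, and IAA13 and IAA11 are its close relatives. In tomato leaves, local auxin response is part of how leaflets and blade grow out from the primordium margin, and an Aux/IAA protein, ENTIRE, limits it. The names are those given with the list of loci. RefSeq gene symbols of the assembly SLM_r2.1 hold 4 of them, IAA12, IAA13, IAA26 and IAA29, each on the chromosome that the locus identifier gives. RefSeq pairs none of the table's identifiers with a symbol, so the match is by name and chromosome only. The grouping of these genes as divergent members of the family rests on protein sequence, which was not used here.

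The values are read counts divided by 1 factor per library, called scaled values. A single read would be worth 0.948, 1.04 and 1.08 scaled units in replicates 1, 2 and 3; these units are called steps. The loci summed to between 2499843 and 2746410 steps per library. The libraries read the 3′ end of each polyadenylated transcript, about once per molecule whatever its length. Levels of different genes were therefore compared without dividing by length. The order of levels holds for reads assigned to a locus. At least 21.2% of each library fell on no locus, and at least 21.4% was rejected for alignment quality. Whether the 7 genes lost reads in this way, and to unequal degrees, was not tested. Values of 1 step do not occur in the table, and 2 steps is the smallest value above 0. Intervals are exact 95% Poisson intervals of the step number, rescaled, and cover counting error only. In the labelled tissue, 6 of 7 loci recorded for leaf and photosynthesis genes reached 10 scaled units in every library, and the list's levels ran from 6.47 to 5637. Of 4 loci recorded for flower and fruit genes the table holds 2, both listed at 0 in replicate 3, with means of 1.64 and 0.948. No source pairs SlMP with an identifier of the table, so its level was not used to check the genotype.

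IAA26 and IAA13 were the most abundant of the 7 transcripts, IAA12 and IAA35 were intermediate, and IAA11, IAA29 and IAA36 were barely detected. All 7 were above 0 in every library, as were 91.1% of all loci. All loci means the 21717 that the table holds, of which 21686 were above 0 in some library. Genes absent from the table do not enter the shares, medians and percentiles given here. Only 3 of the 7, IAA26, IAA13 and IAA12, reached 10 scaled units in every library, against 68.7% of all loci. The median of the 7 mean levels was 18.4 scaled units, against 33.3 over all loci, and 2 of the 7 lay above the table's median. Members are not replicates, and 7 genes are too few to read these shares as a property of the group.

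**Figure D1:**
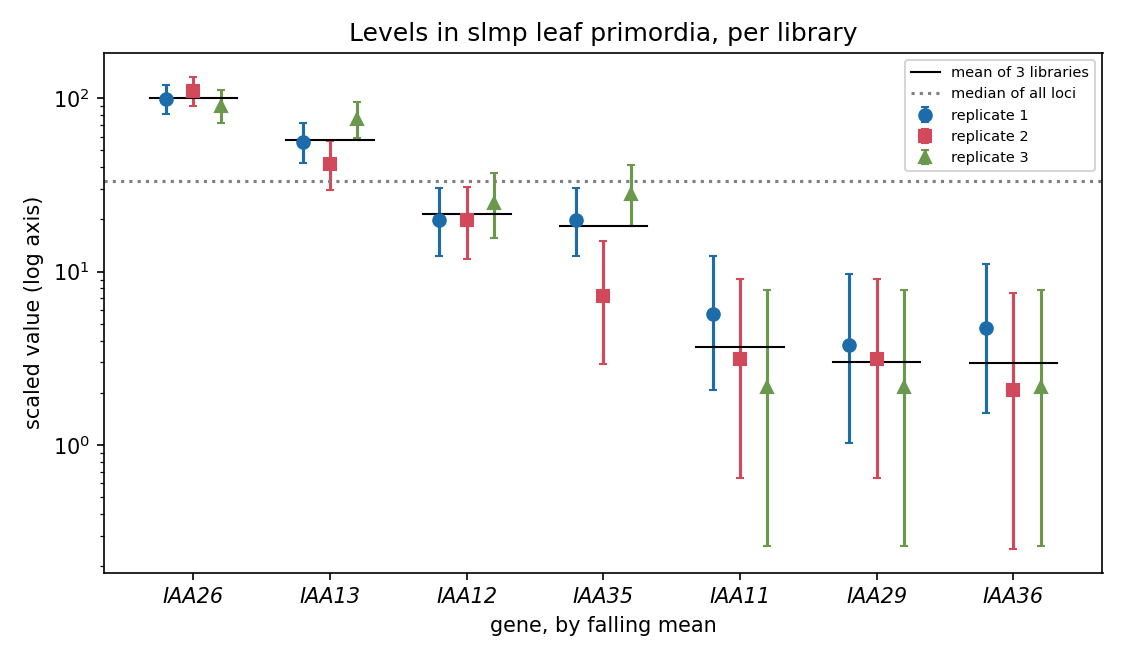
Scaled value (log axis) of each gene in each of the 3 slmp libraries, ordered by falling mean. Points are libraries, bars are exact 95% Poisson counting intervals, black lines are means and the dotted line is the median of all loci (33.3); IAA26 and IAA13 lie above it in every library, and IAA11, IAA29 and IAA36 lie below 6 in every library.

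Among the BODENLOS-like genes, IAA13 was the highest. IAA13 (Solyc09g090910, chromosome 9) had scaled values of 55.9, 41.5 and 75.4 in replicates 1, 2 and 3, a mean of 57.6 ± 17.0 (SD, n = 3). Its level was thus lowest in replicate 2 and highest in replicate 3, and the counting intervals of these libraries, 29.7 to 56.6 and 58.8 to 95.3, did not overlap. The mean lay at percentile 64.5 of all loci, or 1.73 times the table's median.

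IAA12, the gene named after the Arabidopsis repressor BODENLOS, had lower values, which lay closer together in these libraries. IAA12 (Solyc09g064530, chromosome 9) had scaled values of 19.9, 19.7 and 24.8 in replicates 1, 2 and 3, a mean of 21.5 ± 2.87 (SD, n = 3). These values rest on 21, 19 and 23 steps, and their counting intervals overlapped in every pair of libraries. The mean was at percentile 39.2 of all loci. IAA13 exceeded IAA12 in each library, by 2.81, 2.11 and 3.04 times in replicates 1, 2 and 3, and the ranges of the genes did not overlap.

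IAA11, the third of these relatives, was near the lower limit of the table. IAA11 (Solyc12g096980, chromosome 12) had scaled values of 5.69, 3.12 and 2.15 in replicates 1, 2 and 3, which are 6, 3 and 2 steps. Its mean of 3.65 ± 1.83 (SD, n = 3) lay at percentile 9.11 of all loci. The counting interval in replicate 3 ran from 0.261 to 7.78, so the fall from replicate 1 to replicate 3 is within counting error. IAA12 was 5.88 times as abundant as IAA11 by means, with library ratios from 3.50 to 11.5, and IAA13 was 15.8 times as abundant. These ratios have little precision because the lower gene rests on 11 steps in all. Summed, IAA11, IAA12 and IAA13 made up 39.7% ± 5.53 (SD, n = 3) of the signal of the 7 genes.

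IAA26 was the leading transcript of the 7. In Arabidopsis the protein of this name is known to bind the tobacco mosaic virus replicase. IAA26 (Solyc03g121060, chromosome 3) had scaled values of 98.6, 110.1 and 90.5 in replicates 1, 2 and 3, a mean of 99.7 ± 9.84 (SD, n = 3). The replicates lay close together, with a coefficient of variation of 9.87%, and the mean lay at percentile 77.7 of all loci. IAA26 alone gave 48.8% ± 9.44 (SD, n = 3) of the summed signal of the 7 genes. Its share was 47.3%, 58.9% and 40.2% in replicates 1, 2 and 3, and it was highest where IAA13 and IAA35 were lowest. A share of a sum rises when other genes in it fall, so this opposite pattern is partly built in. The counting intervals of IAA26 overlapped in every pair of libraries.

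IAA35 varied most between libraries. IAA35 (Solyc07g008020, chromosome 7) had scaled values of 19.9, 7.27 and 28.0 in replicates 1, 2 and 3, a mean of 18.4 ± 10.5 (SD, n = 3). The value in replicate 2 was the lowest, and the highest value was 3.85 times as large. Replicates 2 and 3 had counting intervals of 2.92 to 15.0 and 18.3 to 41.0, which did not overlap. IAA35 missed the level of 10 in replicate 2 only, and without that library its mean was 24.0.

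IAA29 and IAA36 were close to the smallest values that the table lists. In Arabidopsis, IAA29 is known as a target of the phytochrome-interacting factors, which act in the shade response. IAA29 (Solyc08g021820, chromosome 8) had scaled values of 3.79, 3.12 and 2.15 in replicates 1, 2 and 3, a mean of 3.02 ± 0.822 (SD, n = 3). IAA36 (Solyc06g066020, chromosome 6) had 4.74, 2.08 and 2.15, a mean of 2.99 ± 1.51. Each gene rests on 9 steps in all, at percentiles 6.96 and 6.73 of all loci. In replicate 3 IAA11, IAA29 and IAA36 were all at 2 steps, the smallest value above 0, a value that 678 loci shared in that library. Together these 3 genes made up 4.71% ± 1.99 (SD, n = 3) of the signal of the 7.

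By mean level the order was IAA26, IAA13, IAA12, IAA35, IAA11, IAA29 and IAA36. Neighbours in this order were separated at 3 of 6 places, where the ranges over the libraries did not overlap: between IAA26 and IAA13, between IAA13 and IAA12, and between IAA35 and IAA11. IAA12 and IAA35 did not differ beyond their spread, since both had 21 steps in replicate 1 and the ratio of IAA12 to IAA35 was 2.71 in replicate 2 and 0.885 in replicate 3. The remaining neighbours, IAA11 with IAA29 and IAA29 with IAA36, also overlapped. Over all 21 pairs of genes, 17 had ranges that did not overlap. Replicate 2 decided part of the order: without it IAA35, at 24.0, exceeded IAA12, at 22.3. IAA36, at 3.45, then also exceeded IAA29, at 2.97, both resting on few steps.

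The separations differ in how firmly they stand. IAA26 exceeded IAA13 by 0.82 ± 0.56 (SD, n = 3) on the log2(value + 1) scale, and their ratio ran from 1.20 in replicate 3 to 2.65 in replicate 2. In replicate 3 their counting intervals, 72.2 to 112.1 for IAA26 and 58.8 to 95.3 for IAA13, overlapped. IAA13 exceeded IAA12 by 1.35 ± 0.28 on the same scale, the difference with the smallest SD of the 3 separated places, and their intervals overlapped in replicate 2. IAA35 exceeded IAA11 by 1.95 ± 1.13, and their intervals overlapped in replicates 1 and 2. An exact two-sided sign-flip permutation test over 3 libraries cannot give a p below 0.25. That value was reached at the 3 separated places (adjusted p = 0.5 over the 6 neighbouring pairs, exact permutation test, higher in 3 of 3 libraries), so no step of the order passed a threshold of 0.05. From the top to the bottom of the order, IAA26 exceeded IAA36 by 4.72 ± 0.54 (SD, n = 3) on the log2(value + 1) scale. The ratio of their means was 33.3, a value that depends on the few steps of IAA36.

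The 7 genes were then set beside other loci of the auxin response, from lists of locus identifiers recorded from general knowledge of the tomato families, whose names no source used here pairs with the loci. Of 14 other Aux/IAA loci recorded, 13 were in the table. Their median level was 42.5 scaled units and 9 of the 13 reached 10 in every library, against a median of 18.4 and 3 of 7 for the genes described here. By mean level among the 20 Aux/IAA loci, IAA26 ranked 5, IAA13 ranked 8, IAA12 ranked 11 and IAA35 ranked 13. IAA11, IAA29 and IAA36 ranked 16, 18 and 19, so low transcripts occurred among the other Aux/IAA loci too. The lowest of those, Solyc06g084070, had a mean of 2.97, and the highest, Solyc04g076850, had a mean of 959.6.

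**Figure D2:**
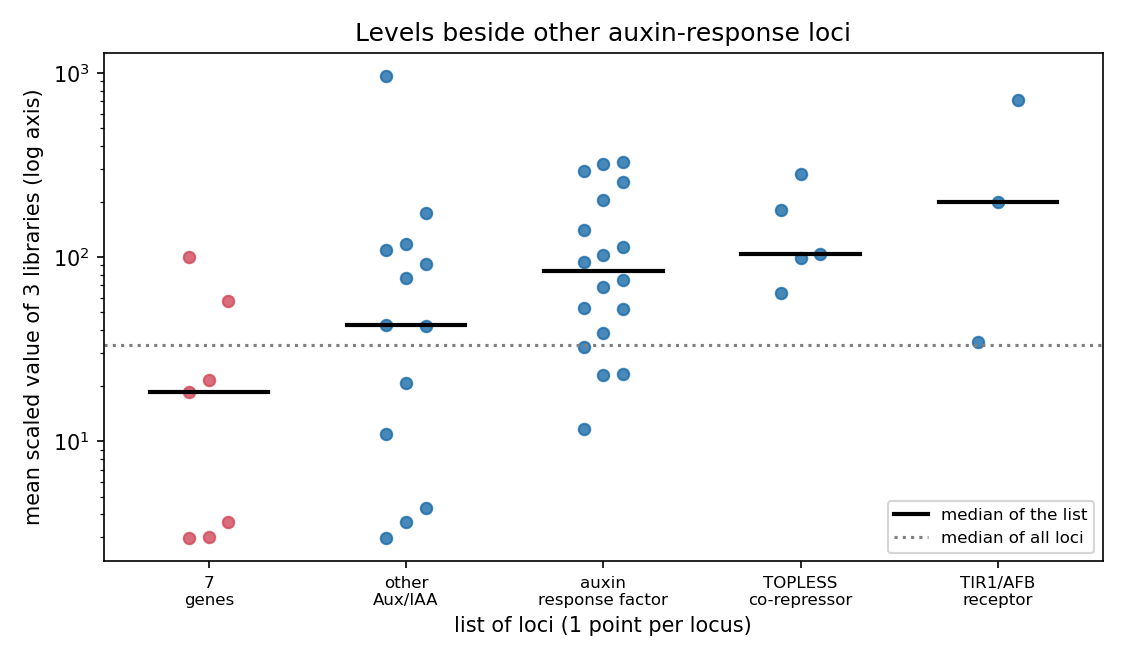
Mean scaled value over 3 libraries (log axis) of the 7 genes and of loci recorded under other auxin-response families, 1 point per locus, with the list median as a black line and the median of all loci dotted. The median of the 7 genes, 18.4, lies below those of the other 4 lists, which run from 42.5 to 197.9. The points of the 7 genes overlap with those of each other list. Recorded loci that the table lacks have no point and do not enter the medians.

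The 7 genes gave similar shares of the signal of the 20 Aux/IAA loci across libraries, but only with the highest locus counted. They made up 11.1%, 10.9% and 11.3% of the summed signal of the 20 Aux/IAA loci in replicates 1, 2 and 3. Solyc04g076850 alone gave 48.8%, 61.0% and 46.1% of that sum. Without that locus the share of the 7 genes was 21.8%, 28.0% and 20.9%, and it was highest in replicate 2. Counting error was not worked out for any of these shares, so the closeness of the first 3 is not read as a constant part.

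The partners of these repressors were mostly more abundant. Of 20 auxin response factor loci recorded, 18 were in the table, with a median of 84.3 and means from 11.7 (Solyc12g006340) to 329.6 (Solyc01g096070), and 17 reached 10 in every library. Of 6 TOPLESS co-repressor loci, 5 were in the table, from 63.7 (Solyc07g008040) to 283.5 (Solyc03g117360), with a median of 103.7. The 3 TIR1/AFB receptor loci had means of 34.7 (Solyc02g079190), 197.9 and 708.5 (Solyc09g074520). IAA26, at 99.7, lay near the medians of the response factors and co-repressors, IAA13 lay below both medians but within the range of the response factors, and IAA11, IAA29 and IAA36 lay below every locus of these 3 lists. No test was made between the lists, and transcript levels say nothing of the amounts of these short-lived proteins.

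For each gene, the locus most alike in level was sought among these 39 auxin-response loci, by the largest difference on the log2(value + 1) scale in any of the 3 libraries. IAA12 had the closest match, the auxin response factor locus Solyc06g075150, at 21.8, 19.7 and 26.9 scaled units in replicates 1, 2 and 3. The largest difference was 0.13, and 21 loci of the whole table lay as close. IAA26 was most like the auxin response factor locus Solyc08g082630 (largest difference 0.27) and IAA13 was most like the auxin response factor locus Solyc11g069500 (0.40). These matches are loose, since 394 and 424 loci of the table lay as close. IAA35 had no near match: the closest, the Aux/IAA locus Solyc09g065850, differed by up to 1.00. IAA11 and IAA36 were most like the Aux/IAA locus Solyc06g008580, which had 6.63, 2.08 and 2.15, a likeness that rests on a few steps. For IAA29 that locus and the Aux/IAA locus Solyc03g120380 were equally close, with a largest difference of 0.67 each.

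The library with the lowest value differed among the 7 genes, mostly within counting error. The lowest value was in replicate 2 for IAA12, IAA13, IAA35 and IAA36, and in replicate 3 for IAA11, IAA26 and IAA29. Over all loci above 0, 27.6%, 35.0% and 35.4% had their lowest value in replicates 1, 2 and 3. For IAA12 the values of replicates 1 and 2 were almost equal, and for IAA36 replicates 2 and 3 both stood at 2 steps. For no gene did the lowest library stand apart from both others by its counting interval. IAA13 and IAA35 were each apart between replicates 2 and 3 and overlapped between replicates 1 and 2. On the log2(value + 1) scale, IAA13 lay 0.42 above its own mean in replicate 3 and at -0.42 in replicate 2, and IAA35 lay at 0.76 and -1.05. IAA26 had the opposite order, at 0.15 in replicate 2 and -0.13 in replicate 3, within counting error.

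**Figure D3:**
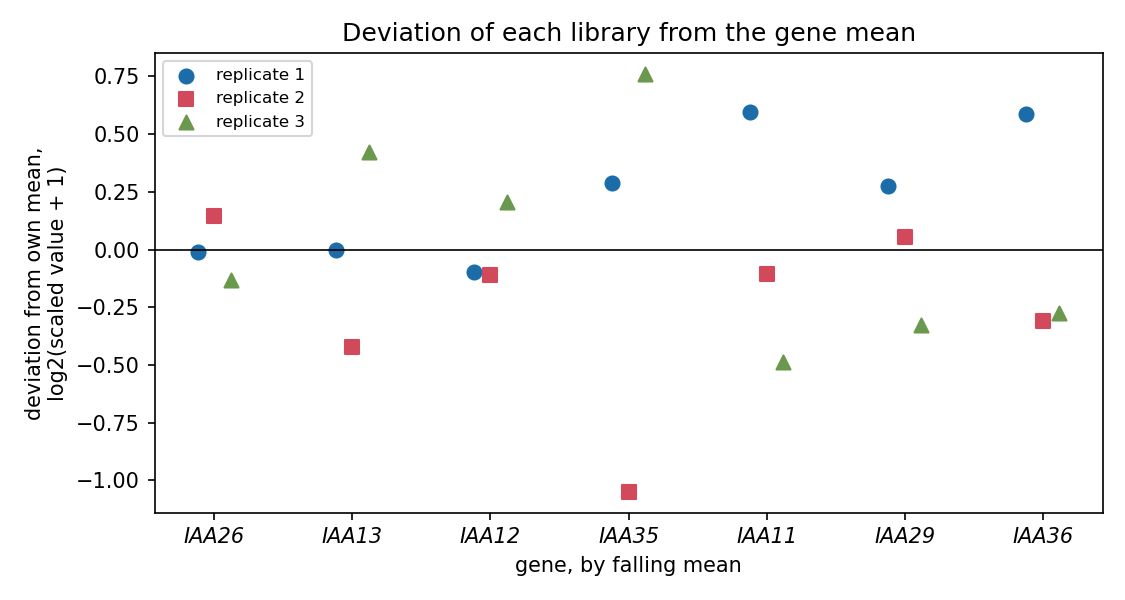
Deviation of each library from the gene's own mean, on the log2(scaled value + 1) scale, for the 7 genes ordered by falling mean, with 1 point per library. IAA13 and IAA35 are lowest in replicate 2 (-0.42 and -1.05) and highest in replicate 3 (0.42 and 0.76), whereas IAA11, IAA29 and IAA36 are highest in replicate 1.

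Other loci were also low in replicate 2. Of the 13 other Aux/IAA loci, 11 had their lowest value there, with a median deviation of -0.35. Of the 18 auxin response factor loci, 4 did, with a median deviation of 0.12. Among all loci above 0 the share was 35.0%. The lists were recorded with earlier results of these data known, so the counts are descriptive only. In the leaf and photosynthesis list 4 of 7 loci were lowest in replicate 2, 2 in replicate 1 and 1 in replicate 3. The list's median deviation in replicate 2 was -0.43. Its median level was 283.4, 527.6 and 336.2 in replicates 1, 2 and 3, but a single locus gave that median in every library. The highest locus, Solyc03g034220, had 5589, 4075 and 7246, and the loci ranked 2 and 3 were also lowest in replicate 2. The part of tissue makeup or handling in the low values of IAA13 and IAA35 in replicate 2 was not tested. In pooled tissue, fewer cells that express a gene and less RNA per cell cannot be told apart.

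Spread between libraries exceeded counting error for 2 of the 7 genes, IAA13 and IAA35, whose counting intervals were apart for replicates 2 and 3. The same held for 24.7% of all loci above 0, so a count of 2 is close to the share of the whole table. The Pearson statistic of the step numbers per degree of freedom, which is about 1 under counting alone, was 4.76 for IAA13 and 5.66 for IAA35. It lay between 0.217 and 0.920 for the other 5 genes. In a Pearson chi-square test adjusted over all loci with at least 15 steps in all, IAA13 and IAA35 passed the threshold of 0.05 among 4 members tested, as did 29.3% of the loci. Without replicate 2, or without replicate 3, none of the 7 genes had intervals apart.

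The loci next to each gene in identifier order differed from it by at least 50% in some library, so none of the 7 had a neighbour with near-identical values. The strand setting of the counting is not given, and reads of an antisense transcript could not be told apart.

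Set against loci of their own level, IAA35 and IAA13 were also the variable members. The SD of log2(value + 1) was 0.94 for IAA35, against a median of 0.40 in its decile of all loci by level and an upper quartile of 0.58. It was 0.42 for IAA13, against a median of 0.28 and an upper quartile of 0.41. IAA12 and IAA26 varied less between these libraries than the median locus of their level, at 0.18 against 0.40 and 0.14 against 0.24. Their Pearson statistics, 0.366 and 0.920, were no larger than counting alone gives. With 3 values each, the small spread is not read as a trait of these genes. IAA11, IAA36 and IAA29 had SDs of 0.55, 0.51 and 0.31, against a median of 1.16 in the lowest decile of loci, many of which are listed at 0 in some library.

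**Figure D4:**
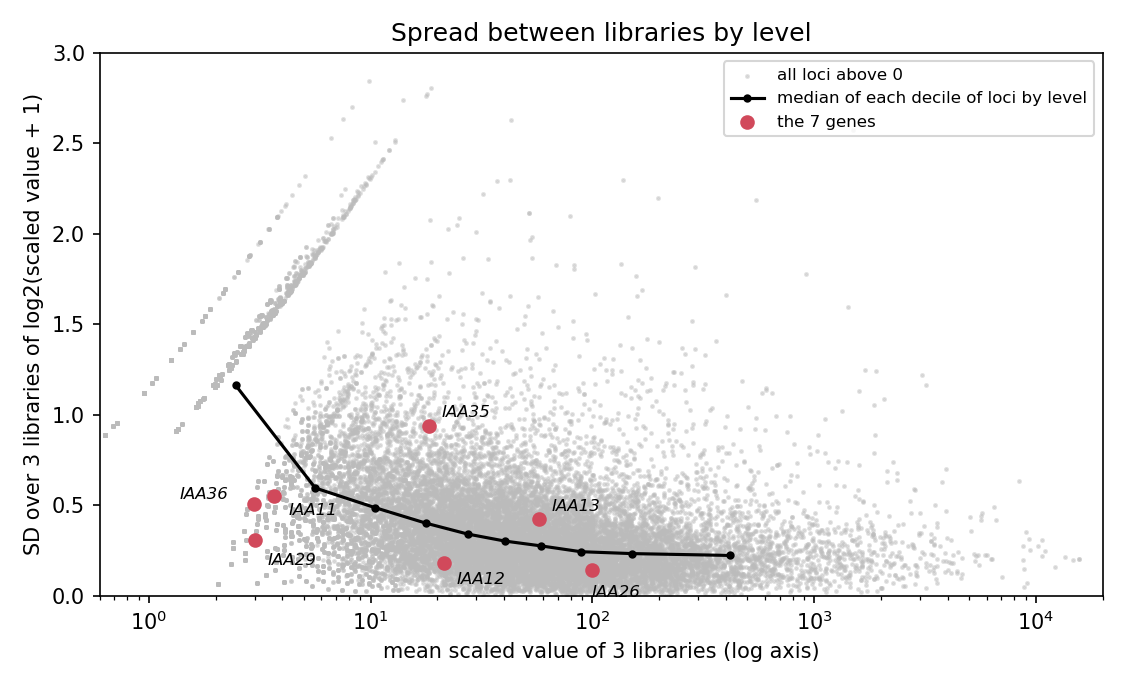
SD over 3 libraries of log2(scaled value + 1) against mean scaled value (log axis) for all loci above 0 (grey), with the median of each decile of loci by level in black and the 7 genes in red; 1 locus lies above the axis. IAA35 (0.94) and IAA13 (0.42) lie above the line of medians and the other 5 genes lie below it.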

How the data were processed

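The members and lists were chosen with earlier results of these data known. Per the labels' protocols, 3′ QuantSeq libraries were made from polyadenylated RNA. Bowtie2, HTSeq and DESeq2 are named in the submitters' processing notes, while their versions, the genome build, the annotation and the strand setting are not stated there or in the labels. The deposited signal values are not whole, but 100% are whole multiples of 1 step per library, within 0.01 of a step. Because values of 1 step are missing, the planned likelihood ratio test between libraries was not run. It was replaced by exact Poisson intervals of the step numbers, a choice made after seeing the data. These intervals and the Pearson chi-square test also treat the step numbers as counts, so the missing values limit them too. The 3 summary rows of the counting (no locus, ambiguous and low quality, at least 21.2%, 2.43% and 21.4% of each library) were left out.

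Levels are means of scaled values. Spread is the SD of log2(value + 1). Neighbouring genes were compared with an exact sign-flip permutation test, adjusted by the Benjamini-Hochberg method. All 7 genes are named; other loci are named as the highest or lowest of a list or as most alike in level. Alternatives were the scaling, pseudocount, detection minimum and leaving out each library. The interval calculation was tested on simulated Poisson counts, which unlike the deposited values can take 1 step. Calls were scored only at the more abundant loci. Levels as low as those of IAA12, IAA35, IAA11, IAA29 and IAA36 were therefore not covered. The software was Python 3.11.15 with SciPy 1.17.1, pandas 2.3.3, numpy 2.4.6 and matplotlib 3.10.9.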

Additional observations from a re-analysis of the deposited data

Results flagged for a closer look

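The summary rows of the counting lie outside the values above and were above 0 in all 3 libraries. The lowest share in any library was 21.2% for reads assigned to no locus, 21.4% for reads rejected for alignment quality and 2.43% for ambiguous reads, each as a part of the sum of loci and summary rows. Whether any of these reads came from the 7 genes was not tested. Outlying libraries were not tested for, since each gene has only 3 values.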

How the results depend on the processing

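Over 82 recomputed values, 74 stayed within 1.5 times of a count or spread, or within the replicate SD of a level. The 74 include all 35 for the levels of single genes. Leaving out 1 of 3 values cannot move a mean by a full SD. The scaling factors tried lay between 0.986 and 1.02. These 35 values therefore say little about how firm the levels are. The order of the 7 means was kept under both other scalings (equal library totals and unweighted trimmed-mean factors) and without replicate 3. Without replicate 1 it was also kept, apart from a tie of IAA11 and IAA29 at 2.64. Without replicate 2 only 3 of 7 positions were kept. The number of separated neighbours was 3 under both other scalings and with each replicate left out. Leaving out a replicate cannot widen the range of a gene, which favours separation. The pseudocount does not enter this count, so its 2 settings, included in the 74, repeat the main value. The median level, 18.4, was 57.6 over the 3 detected genes, which leaves out the low genes by construction (chosen after seeing the data), and 13.6 to 22.3 with each replicate left out. The difference between IAA26 and IAA36, 4.72, was 3.72 with a pseudocount of 5, which shrinks low values by construction, and 4.62 to 5.02 with a replicate left out. The median spread, 0.42, was 0.26 with a pseudocount of 5, 0.18 over the detected genes and 0.27 to 0.33 with a replicate left out. The number of genes varying beyond counting, 2, was 0 to 2 with a replicate left out, and 2 by a Pearson chi-square test. The 4 genes lowest in replicate 2 became 3 with trimmed-mean factors and 3 by whole step numbers, a setting that was not planned. They became 2 among detected genes, where fewer genes are counted. No paired analysis was possible because the design has a single group. The planned edgeR test between libraries was not run. Depth limits IAA11, IAA29 and IAA36, each with 6 steps or fewer in any library.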
